A study of Homo sapiens with 10 samples.

Results

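The SOX and POU transcription factor genes were examined for H3K27ac and H3K18ac in a prostate adenocarcinoma cell line and its drug-resistant derivative. Members were all protein-coding genes of GENCODE release 44 whose symbol is SOX with a number, or POU with a number, F and a number, and SOX2 and POU3F2 were left out. The rule took 32 of 20033 protein-coding genes, 18 SOX and 14 POU genes. C4-2B cells come from castration-resistant prostate adenocarcinoma, and C4-2BER is the enzalutamide-resistant, NE-like line that the study derived from it by continuous exposure to the drug. Chromatin of both lines was crosslinked with DSG and formaldehyde, and each mark was profiled in 2 libraries per line (8 ChIP libraries) beside 1 input library per line. C4-2BER is a single derived line, so what the drug did and what belongs to this line cannot be told apart.

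The authors merged the replicates before they called peaks, which left 4 peak lists, 1 for each mark and line. The values below therefore carry no error between replicates, and differences between the lines could not be tested. Depth is unknown, since reads were not counted in the lists. A site without a peak may still carry the mark below the threshold of the peak caller, and a lower fold enrichment cannot be told apart from fewer cells that carry the mark.

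Acetylation of histone H3 at lysine 27 or lysine 18 is found at active promoters and enhancers. SOX proteins bind the minor groove of DNA through an HMG box and bend it, whereas POU proteins bind an octamer sequence through a POU-specific domain and a homeodomain. Members of both families direct cell identity, often as SOX and POU partners on adjacent sites, in neural progenitors, neural crest, endothelium, pluripotent cells, pituitary and tuft cells. SOX4 and SOX9 are known from prostate epithelium and prostate cancer, and POU2F3 is the regulator of tuft cells and of tuft-like small cell carcinomas.

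Sequences are shown for the members whose promoter gained or lost a peak and that RefSeq promoter sequences were at hand for. These run from 250 bases before to 50 bases after the start of each gene, on GRCh38.p14, 5′ to 3′ on the strand of the gene. Capitals mark the POU octamer ATGCAAAT or the SOX cores AACAAT and ACAAAG, in either orientation. SOX30 and POU6F1 had an H3K27ac peak in C4-2B alone, SOX3 and POU3F3 an H3K18ac peak in C4-2BER alone, and POU4F2 an H3K18ac peak in C4-2B alone, all within 1000 bp of the TSS.
SOX30 (chr5:157652389-157652688, - strand): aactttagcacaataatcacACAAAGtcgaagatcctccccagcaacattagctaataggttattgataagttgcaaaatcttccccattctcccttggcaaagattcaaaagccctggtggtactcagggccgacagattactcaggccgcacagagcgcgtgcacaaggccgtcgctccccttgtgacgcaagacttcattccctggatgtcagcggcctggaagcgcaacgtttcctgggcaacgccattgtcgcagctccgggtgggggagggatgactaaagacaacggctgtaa
POU6F1 (chr12:51218013-51218312, - strand): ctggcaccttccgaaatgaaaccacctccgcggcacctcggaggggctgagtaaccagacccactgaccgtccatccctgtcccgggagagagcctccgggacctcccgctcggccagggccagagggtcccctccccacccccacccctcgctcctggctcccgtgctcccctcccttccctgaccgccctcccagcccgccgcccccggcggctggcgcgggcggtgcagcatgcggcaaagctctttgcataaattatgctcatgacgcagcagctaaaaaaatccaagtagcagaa
SOX3 (chrX:140505020-140505319, - strand): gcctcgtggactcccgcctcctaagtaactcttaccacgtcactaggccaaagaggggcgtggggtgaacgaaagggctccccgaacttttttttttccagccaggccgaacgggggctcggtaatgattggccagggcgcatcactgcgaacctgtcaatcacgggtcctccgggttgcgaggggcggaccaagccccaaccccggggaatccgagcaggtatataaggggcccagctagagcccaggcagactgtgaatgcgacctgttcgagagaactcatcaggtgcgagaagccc
POU3F3 (chr2:104853865-104854164, + strand): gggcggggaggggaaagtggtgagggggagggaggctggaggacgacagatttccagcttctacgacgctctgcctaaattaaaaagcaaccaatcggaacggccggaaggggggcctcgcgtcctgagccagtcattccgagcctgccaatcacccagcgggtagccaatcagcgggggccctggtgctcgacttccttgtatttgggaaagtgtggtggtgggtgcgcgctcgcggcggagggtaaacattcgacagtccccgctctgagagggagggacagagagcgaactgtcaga
POU4F2 (chr4:146638643-146638942, + strand): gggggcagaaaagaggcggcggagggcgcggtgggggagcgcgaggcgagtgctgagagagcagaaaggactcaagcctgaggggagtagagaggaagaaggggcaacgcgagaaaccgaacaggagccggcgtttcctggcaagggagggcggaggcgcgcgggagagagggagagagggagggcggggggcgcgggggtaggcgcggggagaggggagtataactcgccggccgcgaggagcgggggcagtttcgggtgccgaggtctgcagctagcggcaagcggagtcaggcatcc

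Of these 5 promoters, SOX30 held 1 SOX core, 230 bases before its start. The members with no matched sequence include SOX7, SOX8, SOX9, SOX10, SOX11, SOX14, SOX15, SOX17, SOX18, POU2F3 and POU5F1. Among the 20 members that matched, 2 promoters held the octamer, against 1.69% of the 15345 promoters of protein-coding genes that matched. Either SOX core was found in 5 of the 20, or 25.0%, against 17.5% of all, and no matches overlapped in the members. The SOX5 sequence belongs to its far upstream start, 612821 bp from the canonical TSS. The octamer promoters were those of POU5F2 and SOX12, and the canonical start of SOX6 held 5 SOX cores. Both of the following are shown because they hold the motifs that the families themselves bind. SOX12 had the highest H3K27ac promoter of the members in C4-2BER, and the SOX6 start had no peak of either mark.
SOX12 (chr20:325302-325601, + strand): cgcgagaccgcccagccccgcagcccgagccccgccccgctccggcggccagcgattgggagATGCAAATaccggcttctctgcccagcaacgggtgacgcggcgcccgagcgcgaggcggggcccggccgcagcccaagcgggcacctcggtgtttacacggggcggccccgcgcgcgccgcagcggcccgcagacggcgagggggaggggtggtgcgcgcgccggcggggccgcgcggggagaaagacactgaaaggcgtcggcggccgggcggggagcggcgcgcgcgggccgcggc
SOX6 (chr11:16356497-16356796, - strand): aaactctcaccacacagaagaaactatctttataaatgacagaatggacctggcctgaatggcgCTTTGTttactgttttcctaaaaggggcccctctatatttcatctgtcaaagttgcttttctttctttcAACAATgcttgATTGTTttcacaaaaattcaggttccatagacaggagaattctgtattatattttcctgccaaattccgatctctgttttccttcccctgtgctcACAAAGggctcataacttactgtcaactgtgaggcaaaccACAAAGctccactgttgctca

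A promoter was given the highest fold enrichment, the ratio of ChIP signal to local background, of any peak that overlapped 1000 bp on either side of the Ensembl canonical TSS. A promoter counted as increased where C4-2BER alone had a peak or its value was 2 times that of C4-2B or more, and as decreased in the mirrored case. By this rule H3K27ac was increased at 1 member promoter, POU2F3, beside 3.31% of all protein-coding promoters. It was decreased at 3, SOX15, SOX30 and POU6F1, beside 8.01% of all. H3K18ac was increased at SOX3 and POU3F3, beside 2.10% of all, and decreased at POU4F2, beside 6.12% of all. The POU3F3 call rests on the edge of the window, as described with that gene. The shares of members were near these backgrounds, or rest on 1 or 2 genes.

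What the members shared was a lower frequency of H3K27ac. H3K27ac lay at 16 of the 32 promoters in at least 1 line, 50%, against 71.8% of all protein-coding genes, and H3K18ac lay at 25, 78.1%, against 85.8%. Both marks were found at 15 promoters and H3K18ac alone at 10, which was 31.3% of the members and 14.3% of all genes. SOX15 was the 1 member with H3K27ac alone. Neither mark was found at the canonical TSS of 6 members, 18.8% against 13.9% of all genes, and SOX1, SOX5, SOX6, POU1F1 and POU4F3 were among them.

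**Figure D1:**
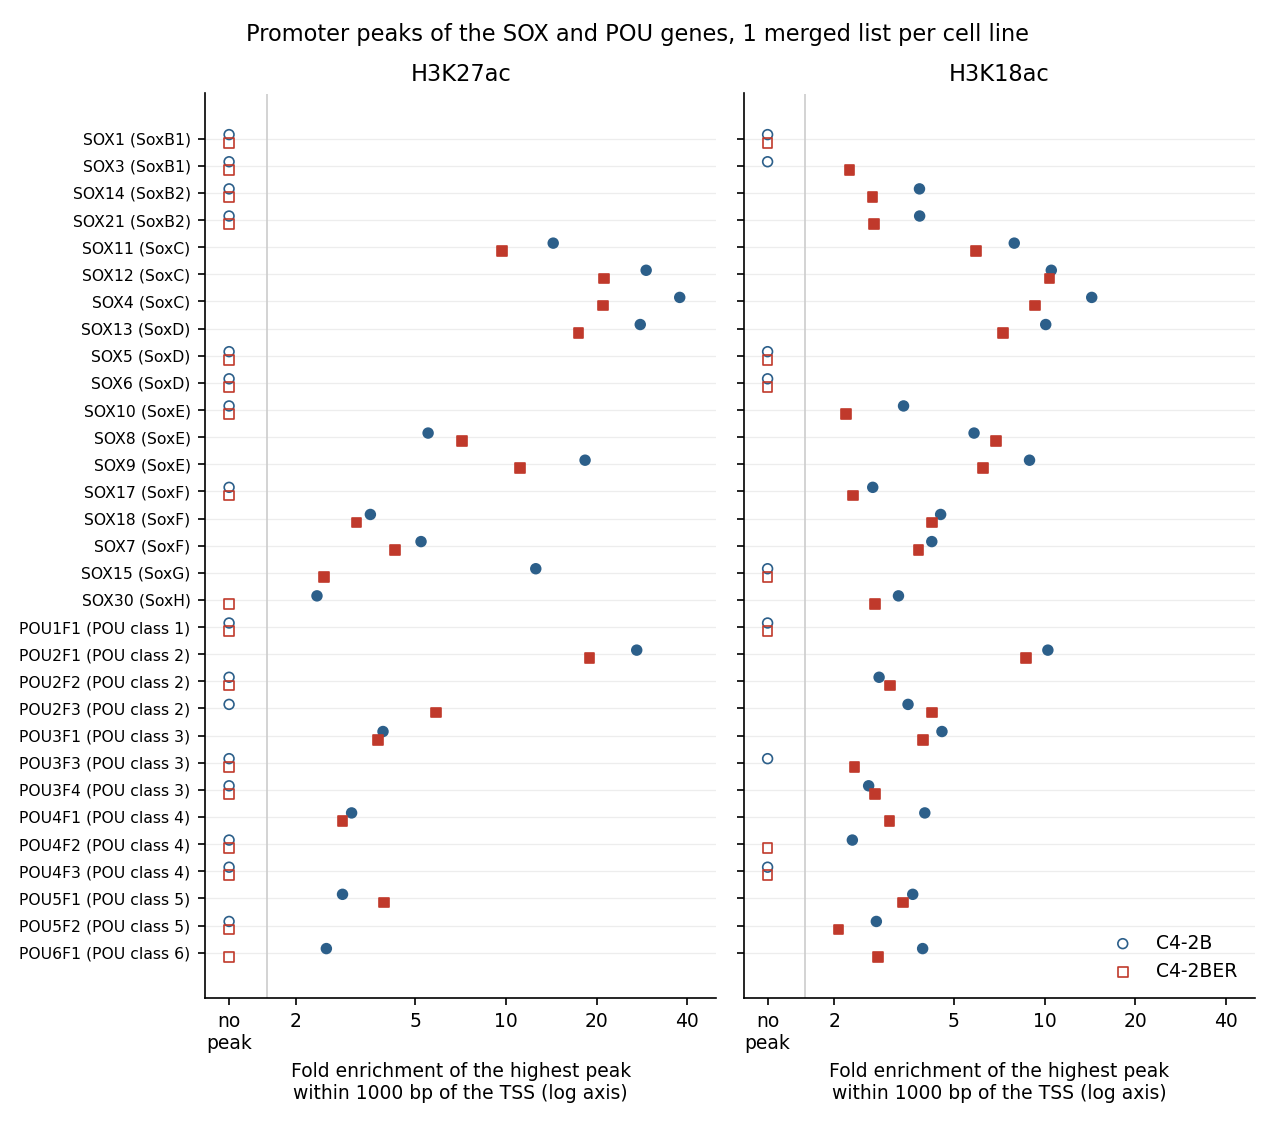
Fold enrichment of the highest peak within 1000 bp of the canonical TSS (log axis) for the members named on the vertical axis, in C4-2B (circles) and C4-2BER (squares), with H3K27ac on the left and H3K18ac on the right; open symbols stand for no peak and each symbol is 1 merged list without error. H3K27ac ranged widely, from SOX4 at 37.8 in C4-2B down to members without a peak, and POU2F3 was the 1 member with H3K27ac in C4-2BER alone.

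The SoxC genes, which act in neuronal differentiation and in many carcinomas, included 2 of the strongest promoters of the group, SOX4 and SOX12. SOX4 had an H3K27ac fold enrichment of 37.8 in C4-2B and 21.0 in C4-2BER, a log2 ratio of -0.85. In C4-2B it stood above 98.3% of all promoters with a peak. SOX12 measured 29.2 in C4-2B and 21.2 in C4-2BER, and SOX11, a gene of neuronal precursors, 14.4 and 9.67. All 3 were lower in C4-2BER without reaching the ratio of 2, but after the rescaling described further on the log2 ratio of SOX12 was 0.07. H3K18ac at SOX4 was 14.4 in C4-2B and 9.27 in C4-2BER, whereas SOX12 was nearly level, with 10.5 and 10.4. The SOX12 window also holds the start of NRSN2-AS1.

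Among the SoxD genes, which lack an activation domain of their own, SOX13 had a strong promoter, with H3K27ac at 27.9 in C4-2B and 17.4 in C4-2BER. SOX5 and SOX6 had none at the canonical TSS. Both were marked at far upstream starts instead. The SOX5 starts that lie 612712 to 612874 bp away had H3K27ac at 2.62 in C4-2B and 2.76 in C4-2BER, and H3K18ac at 4.21 and 5.26. The SOX6 start 249445 bp away had H3K27ac at 3.78 in C4-2B and 2.42 in C4-2BER, unchanged by the rule. No start of another gene lies within 1000 bp of it. The SOX6 starts 382097 and 383045 bp away had H3K27ac at 23.4 in C4-2B and 11.3 in C4-2BER, past the ratio of 2. These SOX6 starts are within 1000 bp of a start of C11orf58, to which the signal may equally belong, and the mean over the whole merged region was 16.2 in C4-2B and 11.3 in C4-2BER, short of the ratio. Starts other than the canonical one were picked out after their values were seen.

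The SoxE genes of neural crest, glia and cartilage split by member. SOX9, which also acts in prostate epithelium, had H3K27ac at 18.3 in C4-2B and 11.1 in C4-2BER. SOX8 was one of the 2 members with H3K27ac in both lines that were higher in C4-2BER, with 5.51 in C4-2B and 7.13 in C4-2BER. Its log2 ratio of 0.37 stood above 95.8% of all promoters with a peak in both lines, and its window also holds starts of LMF1 and CEROX1. SOX10, the regulator of melanocytes and Schwann cells, had H3K18ac alone, 3.40 in C4-2B and 2.18 in C4-2BER.

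The SoxF genes of endothelium were weakly marked. SOX7 had H3K27ac at 5.22 in C4-2B and 4.27 in C4-2BER, and SOX18, in whose window TCEA2 also starts, at 3.54 and 3.19. SOX17 had H3K18ac alone. The SoxB genes of neural progenitors, counted here without SOX2, had no H3K27ac promoter peak. SOX14 and SOX21 carried H3K18ac in both lines, between 2.68 and 3.84. The H3K18ac peak that called SOX3 increased had a fold enrichment of 2.25 and a −log10 q-value of 1.5, and it lay at -1466 to -609 bp without covering the TSS.

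SOX15 had the largest fall in H3K27ac among members, from 12.6 in C4-2B to 2.48 in C4-2BER, a log2 ratio of -2.34. The value rests on where a neighbouring peak ended. In C4-2B a peak of 15241 bp (chr17:7575806-7591046) ran from -952 to 14288 bp over the SOX15 TSS. In C4-2BER the peak inside the window (chr17:7590470-7591928) lay at -1834 to -376 bp and did not cover the TSS. Merged over both lines, the region holds starts of CD68, EIF4A1, FXR2, MPDU1 and SENP3 as well and measured 14.4 in C4-2B and 12.0 in C4-2BER. When the window was widened to 2000 bp on either side, the log2 ratio at SOX15 was 0.03. SOX30, a gene of male germ cells, lost a peak of fold enrichment 2.35 that lay 431 to 1055 bp downstream of its TSS, and only 8.88% of the C4-2B H3K27ac peaks were weaker. H3K18ac was present there in both lines, at 3.27 in C4-2B and 2.73 in C4-2BER.

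Of the POU genes, the ubiquitous class 2 factor POU2F1 (OCT1) had the strongest promoter, with H3K27ac at 27.2 in C4-2B and 18.9 in C4-2BER and H3K18ac at 10.3 and 8.67. POU2F2, the B-cell relative, had H3K18ac alone, 2.82 in C4-2B and 3.07 in C4-2BER. POU2F3 (chr11:120236640-120319945, + strand) had no H3K27ac promoter peak in C4-2B. The C4-2BER peak of 3776 bp ran from -935 to 2840 bp around the TSS with a fold enrichment of 5.86 and a −log10 q-value of 25.7. That fold was above 73.1% of the C4-2BER peaks but above only 14.9% of the promoters with a peak. H3K18ac was there in both lines, at 3.52 in C4-2B and 4.23 in C4-2BER. Its log2 ratio of 0.27 stood above 96.4% of promoters with an H3K18ac peak in both lines. The H3K18ac peak over the TSS was 5580 bp wide in C4-2B and 12926 bp wide in C4-2BER.

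The neural classes 3 and 4, counted here without POU3F2, had little H3K27ac. POU3F1 was level, at 3.90 in C4-2B and 3.75 in C4-2BER, as was POU4F1, at 3.07 and 2.86. POU3F3, whose window also holds the start of PANTR1, had an H3K18ac peak of fold enrichment 2.34 within the window in C4-2BER alone, and that peak did not reach the TSS. At its other start, 828 bp away, H3K18ac was 2.93 in C4-2B and 2.34 in C4-2BER, the merged region was unchanged, and POU3F3 was not called increased with either other window or with every annotated TSS. POU4F2 lost an H3K18ac peak of 2.30, and 11.6% of the C4-2B H3K18ac peaks were weaker. POU3F4 had H3K18ac in both lines, and POU4F3 had no promoter peak.

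POU5F1 (OCT4), the pluripotency factor, had H3K27ac at 2.86 in C4-2B and 3.92 in C4-2BER. Its log2 ratio of 0.45 was above 96.6% of all promoters with a peak in both lines. Both values were low. Its H3K18ac was 3.65 in C4-2B and 3.39 in C4-2BER, so the marks differed in direction. POU5F2 had H3K18ac alone and the pituitary factor POU1F1 neither mark. POU6F1 lost an H3K27ac peak of 2.53, and kept H3K18ac at 3.93 in C4-2B and 2.80 in C4-2BER.

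Over the members with a promoter peak in both lines, values were mostly lower in C4-2BER, as they were over all genes. The median log2 ratio was -0.46 for H3K27ac over 13 members, against -0.51 over 13393 protein-coding genes. For H3K18ac it was -0.25 over 22 members, against -0.34 over 15844 genes. H3K27ac was higher in C4-2BER at 2 of 13 members, 15.4%, against 11.8% of all, and H3K18ac at 4 of 22, 18.2%, against 14.2%. The scale of a fold enrichment is that of its own list. With the ratios rescaled by a robust line over shared regions, the medians were -0.12 and -0.14 for the members and -0.11 and -0.14 for all genes, so the shift of the members was that of the whole list. The rescaled ratio was positive at 4 of 13 members for H3K27ac and at 9 of 22 for H3K18ac.

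**Figure D2:**
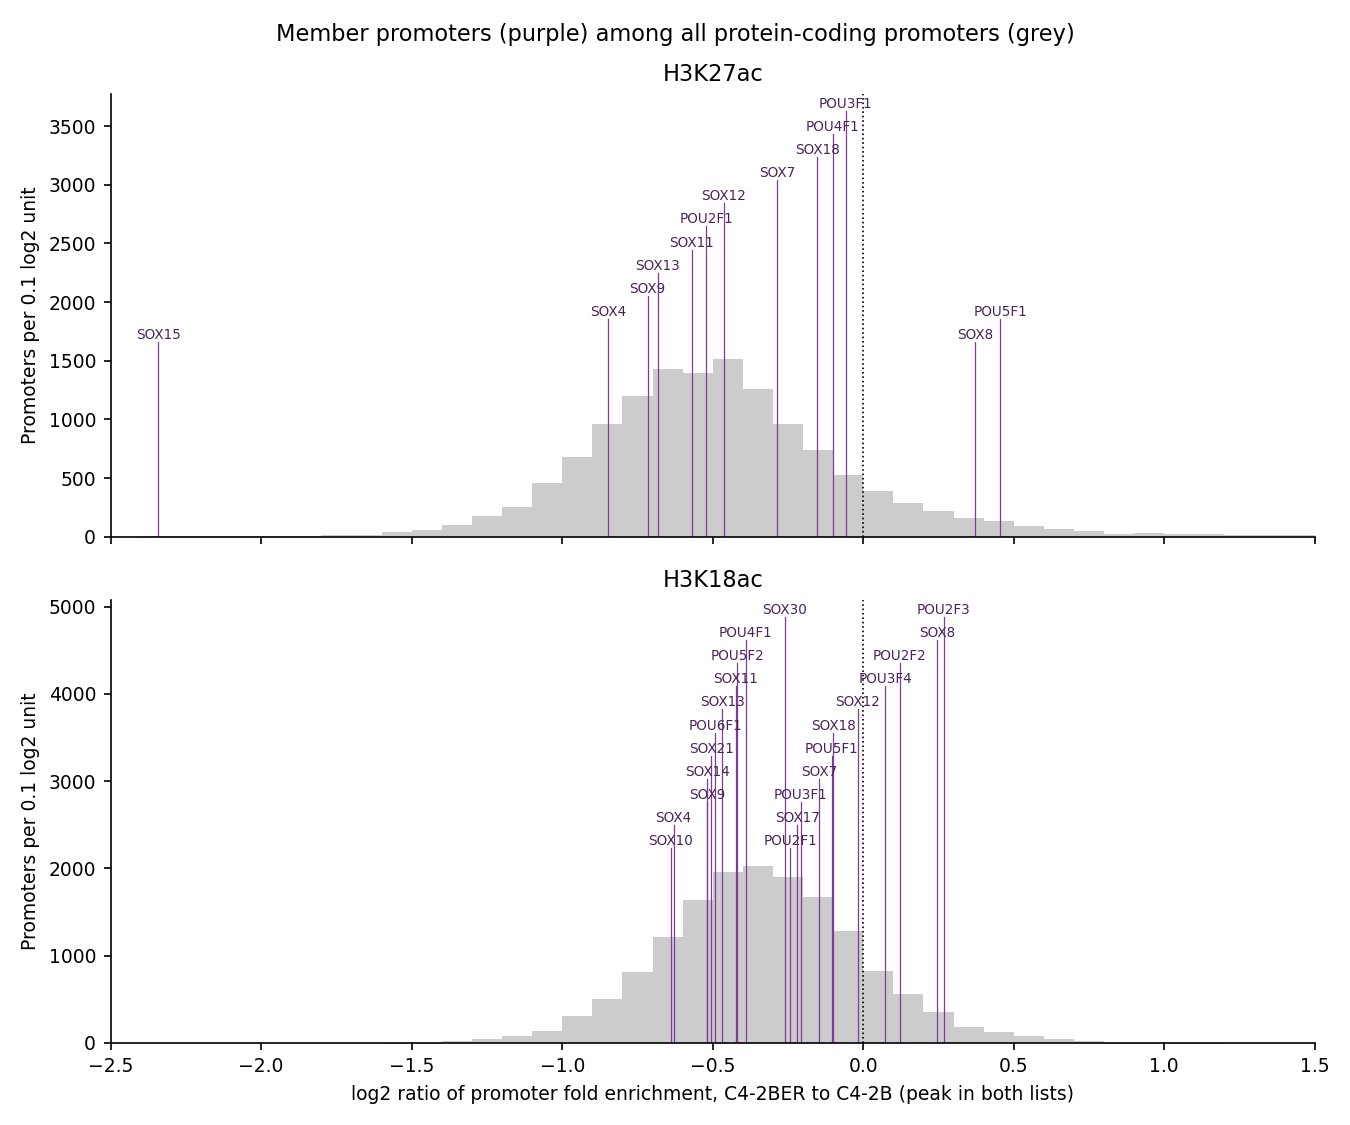
Log2 ratio of promoter fold enrichment, C4-2BER to C4-2B, for promoters with a peak in both lists: grey bars count all protein-coding promoters per 0.1 log2 unit, purple lines mark members, and the few promoters below -2.5 or above 1.5 are not drawn. Apart from SOX15 at -2.34, the H3K27ac members lie between -0.85 and 0.45 inside the range of the grey distribution, whose median is -0.51.

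The wider locus, the gene body with 50 kb to each side, held 220 H3K27ac regions over the 32 members after overlapping peaks of both lines were merged. Of these, 53 were increased and 46 decreased, 24.1% and 20.9%, beside 30.5% increased and 22.7% decreased among all 89877 regions. H3K18ac gave 514 regions, 112 increased and 124 decreased, 21.8% and 24.1%, beside 26.2% and 23.5% among all 247646. The share of increased regions was thus lower than among all regions in both marks, a difference that was not tested. All regions are not confined to gene loci, and the same share over the loci of other genes was not computed. Changed H3K27ac regions were narrow and weak in both directions. The increased ones had a median width of 571 bp and a median fold enrichment of 2.38, the decreased ones 685 bp and 2.52, and the unchanged ones 2336 bp and 4.91. Most changed H3K27ac regions in the loci lay over H3K18ac that was called unchanged. The same shares over all changed H3K27ac regions were not computed, so this is not shown to be particular to these loci. Of the 53 increased regions, 37 lay over unchanged H3K18ac alone and 5 over increased H3K18ac. Of the 46 decreased, 36 lay over unchanged H3K18ac alone and 5 over decreased. Each H3K18ac call is that of a whole merged region, which can be far wider than the H3K27ac site. At SOX18 a C4-2B H3K18ac peak of 57507 bp lay in a region called unchanged. H3K18ac peaks covered 67.8% of that locus in C4-2B and 34.7% in C4-2BER. Whether H3K18ac was level at the H3K27ac sites themselves was not tested. SOX3, SOX14, SOX21, POU3F4 and POU4F3 had no H3K27ac region in the locus, and every member had H3K18ac.

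**Figure D3:**
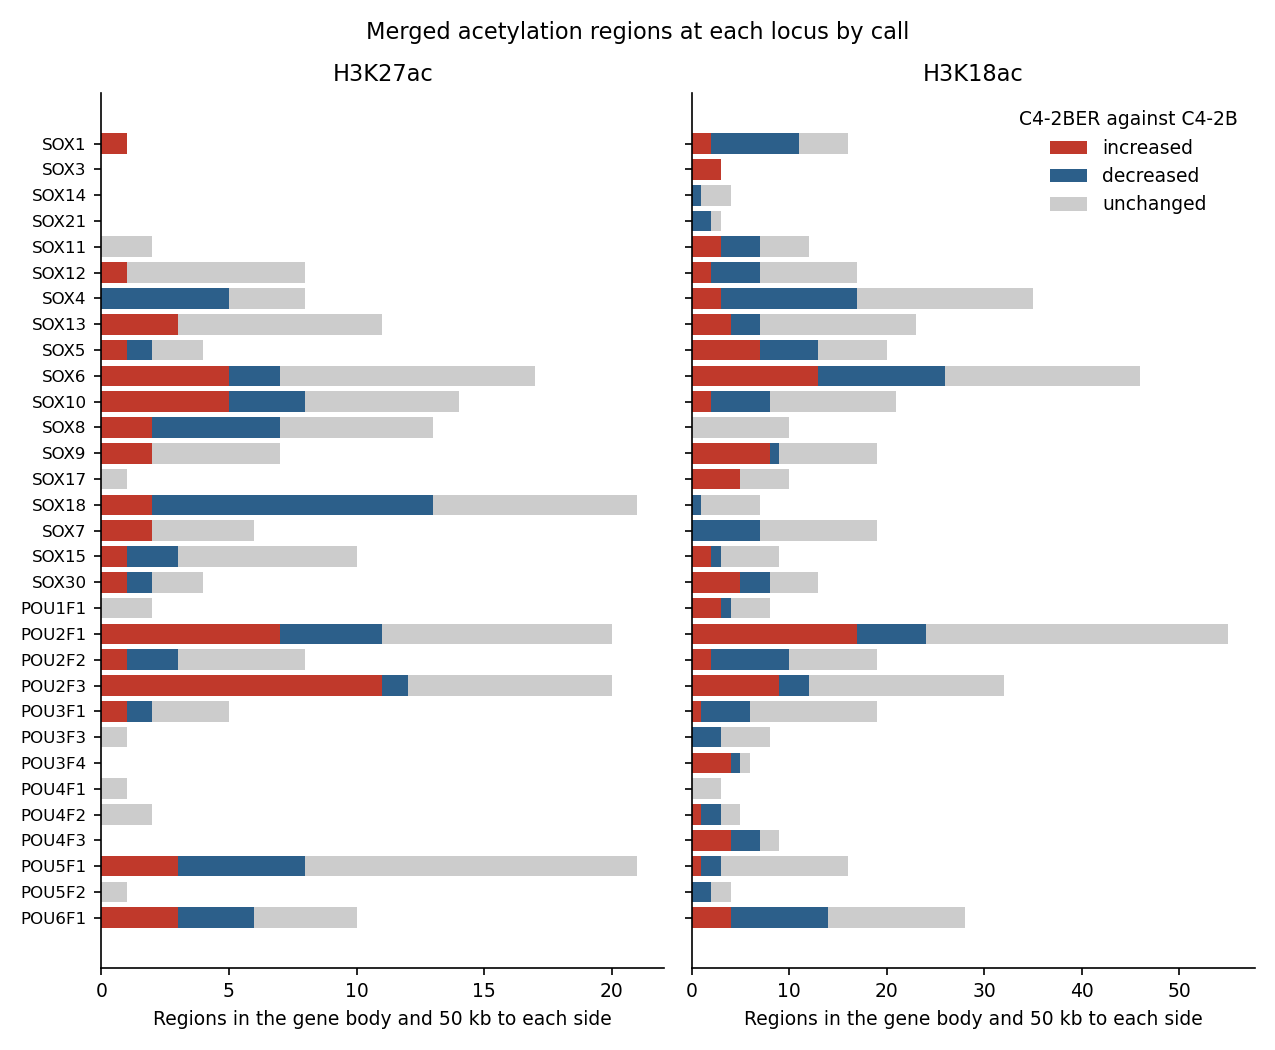
Number of merged regions in the gene body with 50 kb to each side, for the members named on the vertical axis, with H3K27ac (left) and H3K18ac (right), coloured by call in C4-2BER against C4-2B. POU2F3 holds 11 of the 53 increased H3K27ac regions and SOX18 holds 11 of the 46 decreased ones.

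The calls were unevenly spread over the loci. POU2F3 had 11 increased and 1 decreased of 20 H3K27ac regions. Of all protein-coding loci, 98.6% had fewer increased regions, and its share of 55.0% was above that of 95.8% of the 8489 loci with at least 10 regions. POU2F3 was named as the highest of the 32 members, so a high rank follows in part from that choice. Peaks covered 7.95% of the locus in C4-2B and 22.2% in C4-2BER. Coverage was higher in C4-2BER at most member loci with an H3K27ac region, and coverage over the loci of other genes was not computed. Among the gains was a region at -5338 to -2744 bp (3.78 in C4-2BER, no peak in C4-2B). The promoter was another, and so was an intronic stretch at 19315 to 21521 bp (4.21, no peak in C4-2B). Weak peaks of C4-2BER alone made up others of the 11, such as those at -25475 to -25074 bp (2.27) and at 55222 to 55490 bp (2.62). Towards the 3′ end, a region at 74760 to 77940 bp rose from 4.60 in C4-2B to 10.0 in C4-2BER, a log2 ratio of 1.12. The broad region at 59379 to 66361 bp went from 6.34 to 11.8 and missed the ratio of 2.

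Of the 7 annotated POU2F3 starts, 6 passed the H3K27ac rule and the start 60763 bp downstream did not, with 7.78 in C4-2B and 11.8 in C4-2BER. The 6 are not separate gains, since the starts 65348 and 65504 bp downstream share that C4-2BER peak of 11.8, set there against a small C4-2B peak of 2.62, in the broad region that missed the ratio. None of the 7 passed it for H3K18ac. H3K18ac peaks covered 33.9% of the locus in C4-2B and 57.6% in C4-2BER, with 9 increased and 3 decreased of 32 regions. Among the neighbours, the peak over the OAF start had 15.7 in C4-2B and 7.32 in C4-2BER, past the ratio of 2, although the merged region, which takes in a weaker C4-2B peak of 3.68, had a mean of 11.7 in C4-2B and was unchanged. The region at ARHGEF12 had 28.7 in C4-2B and 25.0 in C4-2BER. A peak near TLCD5 at 87120 to 88425 bp was found in C4-2BER alone, at 5.56, and was the 1 region there increased in both marks.

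**Figure D4:**
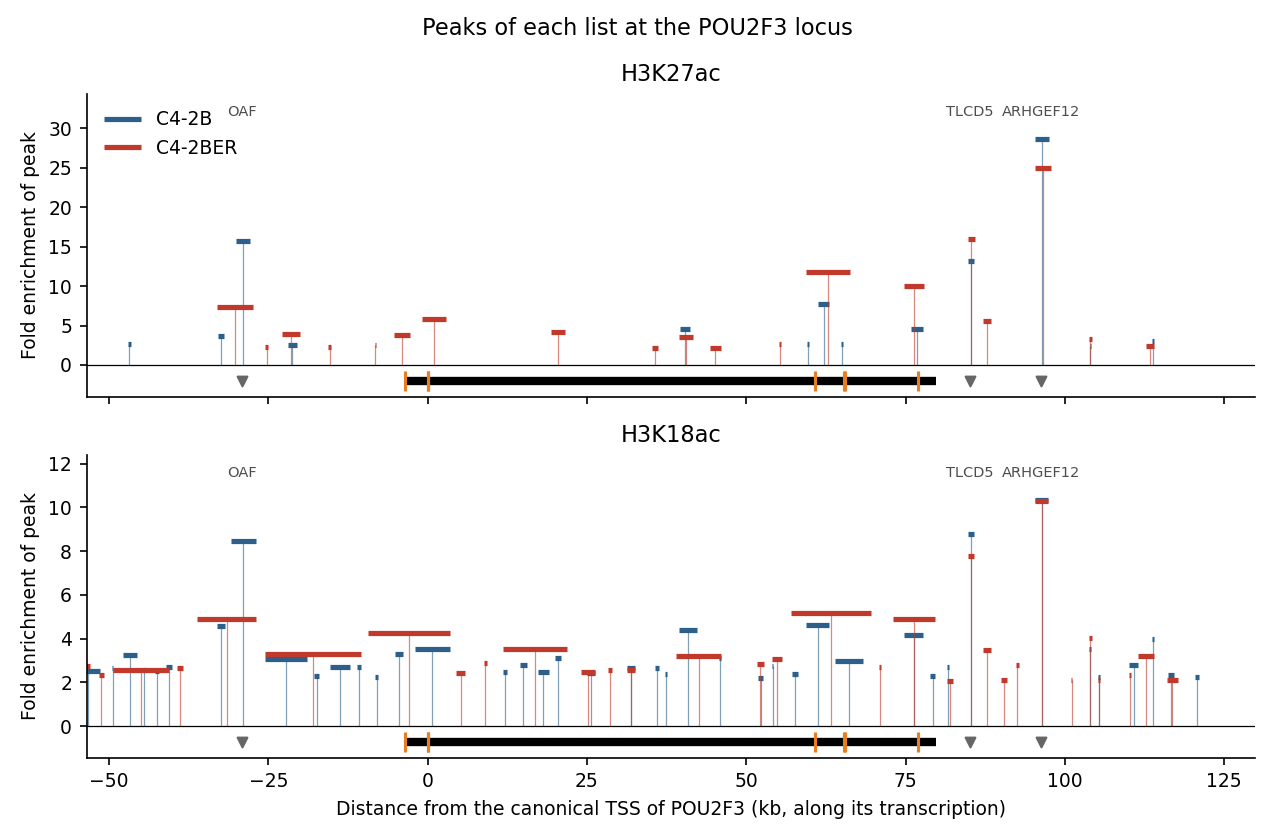
Peaks of each list at the POU2F3 locus by distance from the canonical TSS (kb), drawn as bars of their true width at the height of their fold enrichment, with H3K27ac above, H3K18ac below, the gene as a black bar, its annotated starts as orange ticks and the starts of neighbouring protein-coding genes as triangles. Red C4-2BER peaks stand alone at the H3K27ac promoter (5.86) and at 19 to 22 kb (4.21), whereas H3K18ac is present in both lines along the gene.

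POU2F1 followed, with 7 increased and 4 decreased of 20 regions. Its clearest gain was internal. A region of 528 bp at 150863 to 151390 bp, over an exon of the canonical transcript and an annotated internal start, had H3K27ac at 2.88 in C4-2B and 8.83 in C4-2BER, a log2 ratio of 1.62. H3K18ac at that start rose too, from 2.69 to 6.03. It is 1 of 5 increased H3K27ac regions in the loci where H3K18ac was also increased, 3 of them in POU2F1, and was chosen for display after its values were seen. Its central 300 bases on GRCh38 hold 1 SOX core.
POU2F1 internal region (chr1:167371863-167372162, + strand): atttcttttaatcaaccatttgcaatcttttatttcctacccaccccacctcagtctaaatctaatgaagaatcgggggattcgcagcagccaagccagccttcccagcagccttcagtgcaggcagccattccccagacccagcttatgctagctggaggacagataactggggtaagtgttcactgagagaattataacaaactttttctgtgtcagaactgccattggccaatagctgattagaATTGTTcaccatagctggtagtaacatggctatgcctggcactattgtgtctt

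SOX6 and SOX10 each had 5 increased H3K27ac regions, of 17 and 14. At SOX6 a region at 407662 to 408526 bp, past the 3′ end of the gene, rose from 5.42 in C4-2B to 11.8 in C4-2BER. Another, of 509 bp inside the gene at -333822 to -333314 bp, was found in C4-2BER alone at 4.70 and was increased in both marks. At SOX10 all 5 increased regions were peaks of C4-2BER alone between 2.14 and 3.39. The stronger SOX10 regions did not pass the rule, such as the one at -33347 to -30839 bp with 15.3 in C4-2B and 9.56 in C4-2BER. Shares of increased regions at POU2F1 and SOX10, 35.0% and 35.7%, were above those of 73.3% and 74.4% of large loci. Both loci were named for their high counts.

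SOX18 had the most decreased regions, 11 of 21, a share above that of 95.9% of large loci, with 2 increased. It was named because it had the most, so this rank too follows in part from the choice. H3K27ac covered 34.5% of the locus in C4-2B and 22.6% in C4-2BER. The clearest was a region at 3406 to 5506 bp, just past the gene, with 10.2 in C4-2B and 4.30 in C4-2BER, a log2 ratio of -1.25. The other 10 were peaks of C4-2B alone between 2.28 and 2.80. With a minimum −log10 q-value of 5 for peaks, 1 decreased region was counted at SOX18, so most of this count rests on weak peaks. The locus is dense in genes, and 8 of the 11 lay farther than 1000 bp from the TSS of another gene. H3K18ac peaks covered 67.8% of the SOX18 locus in C4-2B and 34.7% in C4-2BER, with 0 increased and 1 decreased of 7 regions.

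SOX4 had 5 decreased, 3 unchanged and 0 increased of 8 H3K27ac regions. Upstream, the region at -39833 to -34970 bp had 6.21 in C4-2B and 3.04 in C4-2BER, a log2 ratio of -1.03. Peaks at 16047 to 16661 bp (3.89) and at 19159 to 19537 bp (4.74) were found in C4-2B alone. The region at -6772 to -4032 bp fell short of the ratio, with 22.8 in C4-2B and 13.3 in C4-2BER. In H3K18ac, 14 of 35 regions were decreased and 3 increased, and coverage of the locus was 37.7% in C4-2B and 28.3% in C4-2BER, so both marks were lower. Those 5 regions all lay over merged H3K18ac regions that did not pass the rule as a whole.

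**Figure D5:**
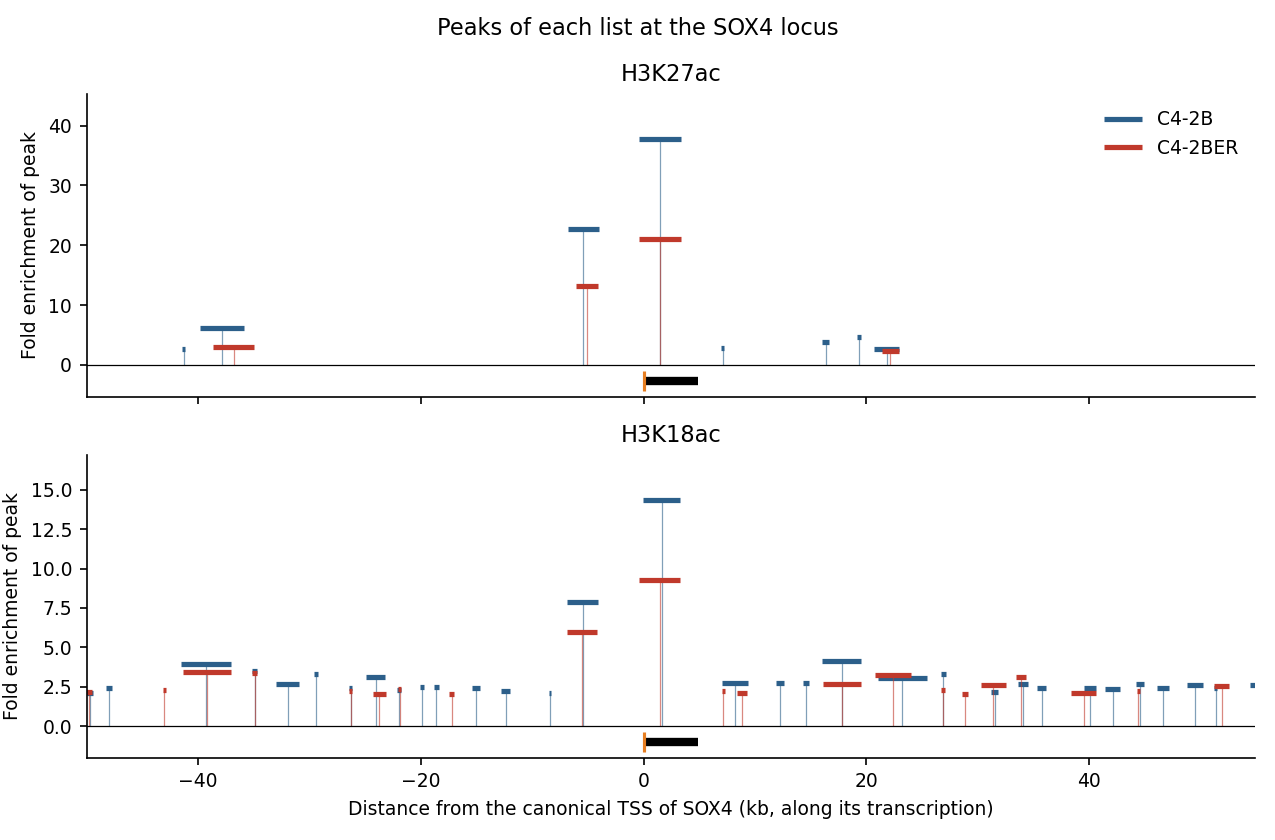
Peaks of each list at the SOX4 locus, drawn as in the map of POU2F3. At the promoter C4-2B stands at 37.8 for H3K27ac and C4-2BER at 21.0, and the downstream C4-2B peaks at 3.89 and 4.74 have no C4-2BER counterpart.

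SOX8 and POU5F1 also had 5 decreased regions each, of 13 and 21, beside 2 and 3 increased. At both, every decreased region was a weak C4-2B peak, between 2.39 and 3.08 at SOX8 and between 2.10 and 3.27 at POU5F1. H3K27ac covered more of both loci in C4-2BER, 23.6% against 20.4% at SOX8 and 47.1% against 35.2% at POU5F1. This was so at most member loci with an H3K27ac region, and only SOX4, SOX18, SOX30, POU3F1 and POU4F2 went the other way. The POU5F1 locus holds several neighbours, and its strongest region, at 8707 to 14090 bp by TCF19 and CCHCR1, had 17.3 in C4-2B and 9.25 in C4-2BER. SOX9, with 0 decreased and 2 increased of 7 regions, had a lower promoter but a coverage of 14.4% in C4-2BER against 6.91% in C4-2B.

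Genes tied to the families moved little. None of 7 other HMG-box factors, such as LEF1 and TCF7L2, passed the H3K27ac rule, and their median log2 ratio of -0.46 was that of the members. LEF1, a WNT effector, was on the higher side, at 7.55 in C4-2B and 10.7 in C4-2BER. Of the 3 POU coactivators, POU2AF1 and POU2AF2 had no H3K27ac promoter peak and POU2AF3, a partner of POU2F3, was unchanged at 6.27 in C4-2B and 7.20 in C4-2BER. Of 9 SOX targets, CLDN5, a tight junction gene, lost a weak peak of 2.60. Of 10 POU targets, AVIL, a tuft cell gene, gained a weak one of 2.18, while the tuft cell channel gene TRPM5 was unchanged at 7.59 in C4-2B and 6.83 in C4-2BER.

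As to the identity of the lines, all 9 prostate luminal markers had H3K27ac promoter peaks in both, and none changed by the rule. KLK3 (PSA) measured 20.3 in C4-2B and 13.8 in C4-2BER. Among the neuroendocrine markers, SYP was marked in both lines at 8.16 in C4-2B and 5.67 in C4-2BER, and ENO2 at 4.00 and 7.30. CHGA, INSM1 and NCAM1 had no H3K27ac promoter peak in either line, so the NE-like label of C4-2BER was not seen in this mark at these 3 promoters. H3K18ac was unchanged at all 6 markers of that list.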

How the data were processed

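The 2 lines were profiled by ChIP-seq for H3K27ac and H3K18ac, and samples were grouped by mark and line from their titles. The authors mapped the reads with bowtie2 (GRCh38), filtered them by mapping quality, blacklist and duplication, pooled replicate libraries and then ran macs2 for broad peaks. In the lists the authors deposited, each peak has a fold enrichment, which is a ratio to local background, and a −log10 q-value. The p-value column was not used. Settings of the peak caller and the use of the inputs are not given in the sources used here, and the differential peaks of the study were not used here.

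From these lists, promoter and locus values were computed as described with the results. Overlapping peaks were merged into regions, whose value in a line was the mean fold enrichment weighted by peak length. No peak ran past the end of a GRCh38 chromosome, and all 28 RefSeq promoter sequences of members equalled the genome at their coordinates. The merging and the calls were tested on simulated data. Members and lists were chosen with earlier results of these data known. Values were given in full for members with a changed promoter, for the 3 highest H3K27ac promoters in each line and for the 3 loci with the most increased and the 3 with the most decreased H3K27ac regions (ties kept). Others were given by subfamily, and further sites were picked out after their values were seen. Software was Python 3.11.15 (numpy 2.4.6, statsmodels 0.14.6, pandas 2.3.3, matplotlib 3.10.9). Single results for some genes are not reported here, and such members are counted but not drawn or named.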

Additional observations from a re-analysis of the deposited data

How the results depend on the processing

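No paired analysis was possible because replicate libraries had been pooled by the authors and no result comes from a test. Of 92 counts recomputed under another setting, 60 stayed within 1.5 times the reported count. POU2F3 passed the H3K27ac promoter rule under every setting tried for promoters except the use of every annotated TSS, where the count of increased promoters was 0. That setting takes the highest value over all starts, for POU2F3 11.8 in C4-2BER and 7.78 in C4-2B, short of the ratio of 2. With peaks of a fold enrichment of at least 4, H3K27ac promoters decreased at 1, H3K18ac increased at 1 and decreased at 2, locus regions numbered 19 increased and 21 decreased for H3K27ac and 11 and 24 for H3K18ac, and 4 at POU2F3 and 2 at SOX18 passed. When peaks needed a −log10 q-value of 5, H3K27ac promoters increased at 2 and decreased at 1, H3K18ac at 0 and 4, locus regions were 30 and 13 for H3K27ac and 42 and 15 for H3K18ac, and SOX18 had 1, while POU2F3 had 8. A ratio of 1.5 gave 6 decreased promoters for H3K27ac and 3 for H3K18ac. With either other promoter window, or every annotated TSS, H3K18ac increased at 1. A flank of 20 kb gave 33 increased and 27 decreased H3K27ac regions, 77 decreased H3K18ac regions and 7 at SOX18. A flank of 100 kb gave 90 and 84 for H3K27ac and 202 and 217 for H3K18ac, in a longer stretch of genome. Of 140 ratios of single members, 139 kept their call and 1 called ratio reversed, the H3K27ac log2 ratio of SOX15, which was 0.0302 with the promoter window widened to 2000 bp on either side. Only members with a peak in both lists have such a ratio, so promoters called from a peak in 1 list alone are left out. SOX15 was the only member with a called change among them, so the 139 say little about how stable the called changes are. The sign changed for 9 of the 140, SOX15 included. The H3K18ac log2 ratio of SOX30 was 0.28 with every annotated TSS, and 7 turned positive on rescaling, among them SOX12 with 0.07 for H3K27ac and 0.26 for H3K18ac. Apart from the flanks, which change the length counted, and POU2F3 with every annotated TSS, the cause of these differences was not tested. The settings for the POU2F3 and SOX18 loci alone were chosen after seeing the data, and gave 4 to 13 increased regions at POU2F3 and 1 to 13 decreased ones at SOX18. A peak just under the threshold of one list and just over that of the other counts as a change, so the weak peaks at most loci limit what the counts can show.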
